A study of Mus musculus with 6 samples.

Results

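Distal sites of open chromatin that were called only in Pax6-OFF cells numbered 2898 of 34742 intervals on chromosomes 1 to 19 (8.34%). Pax6-OFF cells are the mouse line RAG, derived from a renal adenocarcinoma of the BALB/c strain. The sites were chosen by the calls themselves. All peaks of the 3 lines were merged where they overlapped by 1 bp or more, and an interval was kept when it held only Pax6-OFF peaks and no start site of a protein-coding transcript lay within 1 kb of it (mm9). The 2898 sites made up 12.0% of the 24209 distal intervals and 21.6% of the 13394 Pax6-OFF peaks on these chromosomes, and each held a single Pax6-OFF peak. Since the calls chose the sites, their presence in Pax6-OFF cells and absence from the other calls is a description and not a result.

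Accessibility was measured by ATAC-seq, in which the Tn5 transposase cuts and tags open DNA, with 2 samples for each of 3 untreated lines. Pax6-HIGH cells (β-TC3) come from an insulinoma, a tumour of pancreatic islet β-cells, and Pax6-ON cells (MV+) were derived from cultured lens epithelia of a C57BL6 mouse. All 3 lines were cultured in the same medium, and 50000 nuclei were used per reaction. Each tissue is represented by 1 line, and nuclei of Pax6-ON cells were made with 0.2% NP40 where the other lines had 0.1%, so tissue, strain, tumour origin, line and preparation cannot be told apart. The authors pooled both samples of a line in 1 call, which left nothing to estimate replicate error from, and the lines were not tested against each other. Intervals given below are 95% intervals that cover counting error over sites only, and neighbouring sites are not independent. The calls used from 100254099 to 130955836 fragments per line, and the smallest pileup of any called Pax6-OFF peak was 25 fragments. A site counted here as Pax6-OFF-only was not called in the other lines, and signal below their limits was not analysed here.

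Distal open sites are mostly enhancers, insulators and other regulatory elements, and in any cell type they are bound by the transcription factors that this type makes. AP-1 (Fos and Jun dimers), TEAD and RUNX proteins occupy distal elements in many adherent and transformed cells, whereas Pax2, Pax8 and Lhx1 are factors of the nephron epithelium. A nearest gene is a position only, since a distal element may act on a gene farther away.

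The labelled tissue was checked at the start sites of marker genes. Of 10 renal markers, 3 had a Pax6-OFF peak within 1 kb of a protein-coding start site, and 1 of 10 had a peak of Pax6-HIGH cells and 1 of 10 a peak of Pax6-ON cells. By the same rule, 36.3% of all 21410 protein-coding genes had a Pax6-OFF peak, 46.2% a Pax6-HIGH peak and 21.5% a Pax6-ON peak. The renal genes open in Pax6-OFF cells were Pax2 (pileup 44 fragments), the kidney-specific cadherin Cdh16 (43) and Emx2 (68), and Emx2 was also called in Pax6-ON cells. Pax8, Lhx1, Wt1, Cdh6, Lrp2 and Cubn were among those with none. Among the other marker lists, Pax6-OFF peaks lay at the start sites of 1 of 6 epithelial genes (Krt18), 1 of 6 mesenchymal genes (Vim), 1 of 8 β-cell genes (Mafa) and 1 of 8 lens genes (Cryab), of which Sox1 had no entry in the annotation used. These lists are short, and the line is called by its name below. Start sites without a called peak say only that the pileup there did not pass the authors' limit.

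The sequences of the 5 sites with the highest fold enrichment are shown to let the strongest sites be compared, since they differ in how much repeated sequence they hold. Fold enrichment is the fragment pileup at the summit over the background that MACS2 estimated around it. Each line gives 50 bp on each side of the summit on the + strand of mm9, and the site is named after the gene with the nearest start site.
Chl1 site, chr6:103599157-103599257: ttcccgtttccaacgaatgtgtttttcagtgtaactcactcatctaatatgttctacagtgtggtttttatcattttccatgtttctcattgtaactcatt
1700012B15Rik site, chr12:3109915-3110015: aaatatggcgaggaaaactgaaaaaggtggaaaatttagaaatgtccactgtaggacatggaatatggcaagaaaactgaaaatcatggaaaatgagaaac
Hic2 site, chr16:17222414-17222514: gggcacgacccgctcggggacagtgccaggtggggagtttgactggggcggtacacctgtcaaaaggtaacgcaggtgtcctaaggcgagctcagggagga
Cd163l1 site, chr7:147407221-147407321: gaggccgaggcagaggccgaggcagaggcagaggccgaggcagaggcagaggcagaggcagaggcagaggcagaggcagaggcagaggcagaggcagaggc
Abca17 site, chr17:24479785-24479885: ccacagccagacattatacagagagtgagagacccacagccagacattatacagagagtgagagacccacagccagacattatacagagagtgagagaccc

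The Chl1 site, in an intron of a neural cell adhesion gene on chromosome 6, had a pileup of 83751 fragments over a local background of 2832, a fold enrichment of 29.6. The site near 1700012B15Rik on chromosome 12 had a pileup of 106590 and a fold enrichment of 25.8. Both are short, at 217 and 203 bp. In contrast, the Hic2, Cd163l1 and Abca17 sites had pileups of 665, 385 and 260 fragments, with fold enrichments of 24.3, 19.8 and 18.3. The printed letters of the Cd163l1 and Abca17 sites run through the same short unit repeatedly. To describe this property, every 75-mer (the read length) of a window reaching 100 bp to each side of the summit was counted over both strands of the whole reference. In the chromosome 12 window 75.6% of the 75-mers occurred more than once and in the Abca17 window 74.0%, against 29.1% at Cd163l1, 2.36% at Chl1 and 0 at Hic2. Shorter 36-mers, counted in the same way, were repeated more often. Their share was 83.7% in the chromosome 12 window, 80.1% at Abca17, 63.9% at Cd163l1, 57.2% at Chl1 and 23.5% at Hic2. Of all 2898 sites, 18 had a fold enrichment of 10 or more, 17 of these were at most 351 bp long, and 6 had a window in which every 75-mer was unique. In 1 of the 18 every 36-mer was unique.

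Most sites were short and weak. The median length was 315 bp (309–322), the median pileup 40 fragments (39–41) and the median fold enrichment 3.04 (3.02–3.11). By comparison, the 3287 distal Pax6-OFF intervals shared with another line had a median length of 669 bp, a pileup of 50 and a fold enrichment of 3.71. The 7102 Pax6-OFF intervals at start sites reached 784.5 bp, 56 fragments and 4.47-fold. Merging joins peaks of several lines, so a shared interval is longer by construction, and the calls entered the choice of sites, so these values are given without a test. Near the limits of the choice, 262 sites had a pileup under 30 fragments, 80 had a peak of another line within 500 bp, and the nearest such peak was 7 bp away. The site closest to the 1 kb limit lay 1008 bp from the start site of Src, and the closest Pax6-OFF-only interval inside that limit lay 990 bp from one. The local background stood at its genome-wide value of 10.9 fragments for 1764 sites (60.9%).

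**Figure D1:**
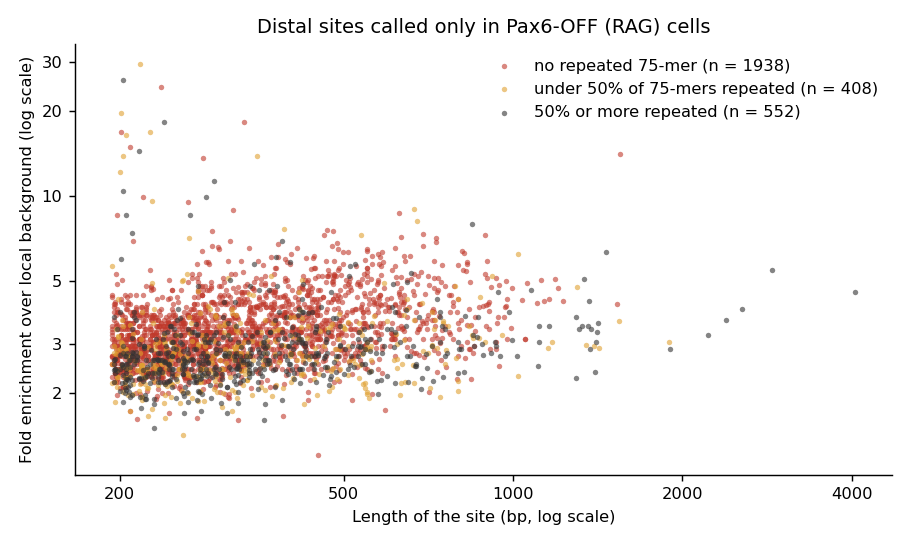
Length (bp, log scale) against fold enrichment over local background (log scale) of the 2898 distal sites called only in Pax6-OFF cells, one point per site, coloured by the share of 75-mers in the summit window that occur more than once in mm9. Most points lie between 2- and 5-fold, and 17 of the 18 sites at 10-fold or more are at most 351 bp long.

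Repeated sequence was more frequent in these sites than in the sites of either other line alone. In 1938 of 2898 windows (66.9%, 65.1–68.6) every 75-mer was unique, and these are called single-copy sites below. That share was 91.2% (90.7–91.7) of the 14679 distal Pax6-HIGH-only sites and 84.5% (83.2–85.8) of the 2865 Pax6-ON-only sites. It was lower than in Pax6-OFF-only sites in distal Pax6-OFF sites shared with 1 other line, at 61.7% (59.7–63.7). In the 1058 distal sites called in all 3 lines it was 45.3% (42.3–48.3). At least 50% of the 75-mers were repeated in 552 Pax6-OFF-only sites (19.05%), and their median fold enrichment was 2.70 against 3.25 in single-copy sites. The reference is from the C57BL/6J strain and Pax6-OFF cells are from BALB/c, and neither this difference nor the placement of reads in repeated windows was tested. Splitting the sites by repeated sequence was chosen after the data were seen.

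The 5 longest sites were all repeated. Snrpn (2881 bp, pileup 114) and C230091D08Rik (2219 bp, pileup 37) were the nearest protein-coding genes of sites inside or beside an array of small nucleolar RNA genes on chromosome 7. An intron of Orc5 held one of 2553 bp and an intron of Psmb1 one of 2388 bp. All 5 had between 82.7% and 100% of their 75-mers repeated.

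Pax6-OFF-only sites were spread unevenly over the chromosomes. Chromosome 12 held 504 sites (17.4%, 16.1–18.8) and chromosome 13 held 366 (12.6%, 11.5–13.9), so that 30.0% of all sites lay on these chromosomes. Densities there were 4.16 and 3.04 sites per Mb, whereas chromosome 3 had 0.357 and chromosome 9 had 0.419. Other distal Pax6-OFF intervals had 7.45% on chromosome 12 and 9.13% on chromosome 13. Among single-copy sites the shares were 12.6% and 10.2%, and the order of the chromosomes changed, since chromosome 15 followed chromosome 12 with 1.65 sites per Mb and chromosome 13 had 1.64. Leaving chromosomes 12 and 13 out left 2028 sites.

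Fragment numbers also differed between chromosomes. At start-site intervals called in all 3 lines, the Pax6-OFF pileup divided by the Pax6-HIGH pileup, relative to all such intervals, had a median of 1.20 on chromosome 12, 1.26 on chromosome 13 and 1.38 on chromosome 15. On chromosome 6 it was 0.505 and on chromosome 1 it was 0.644, with site densities of 0.595 and 0.598 per Mb. Against Pax6-ON cells, chromosomes 12, 13 and 15 stood at 1.30, 1.40 and 1.40. Chromosomes 6 and 1 stood at 0.924 and 0.920 there, so their low ratios to Pax6-HIGH cells were not matched in size against Pax6-ON cells. Chromosome 9 was among those that departed from this order, with a ratio of 1.23 to Pax6-HIGH cells and few sites. Over the 19 chromosomes, which share the same libraries and depths, the rank correlation of these ratios with the density of single-copy sites was 0.72 against Pax6-HIGH and 0.75 against Pax6-ON cells, given as a description. The part of these ratios in the spread of sites was not tested.

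**Figure D2:**
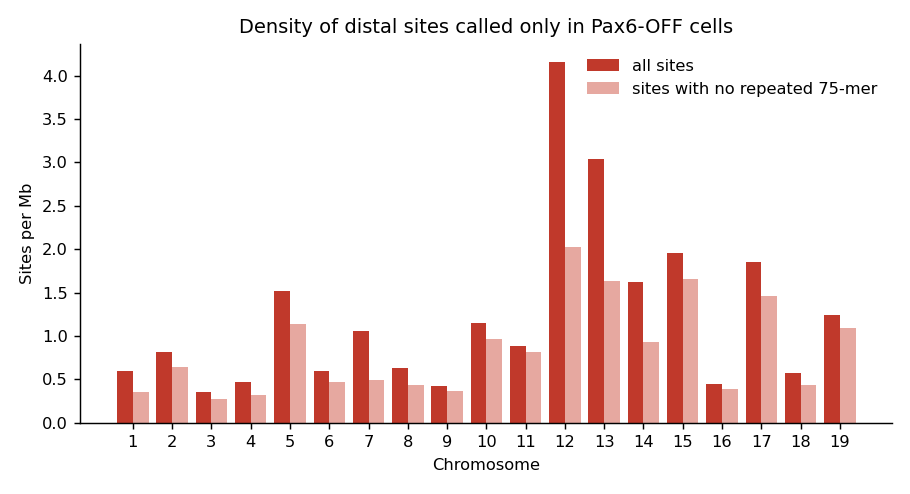
Distal Pax6-OFF-only sites per Mb (y axis) on chromosomes 1 to 19 (x axis), for all 2898 sites and for the 1938 sites with no repeated 75-mer in the summit window. Chromosome 12 stands at 4.16 per Mb for all sites and at 2.02 for single-copy sites.

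Within chromosomes, 59 stretches of 100 kb held 5 or more sites, 496 sites in all (17.1%), and 40 of these stretches lay on chromosomes 12 and 13. Of the 496 sites, 124 were single-copy, against 75.5% of the sites outside stretches. The densest, chr12:116990370-117088753, held 20 sites in the immunoglobulin heavy chain variable region, with 6 annotated immunoglobulin gene segments and a median pileup of 61 fragments over a median background of 18.4. Next came 16 sites at chr12:19747728-19837392 near Gm9257 and 16 at chr13:66811547-66903495 near Gm17404 and the vomeronasal receptor pseudogene Vmn2r-ps106. Another 15 each lay at chr12:20211863-20307365 near Gm10479 and at chr12:116740416-116840223 in the heavy chain region. In the latter stretch 9 of 15 sites were single-copy, whereas 2 of 16 were at the chromosome 13 stretch. A stretch at chr7:66767078-66867262, named after its values were seen, held 12 sites and 53 small nucleolar RNA genes, and none of its sites was single-copy.

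The genes with the most sites followed these stretches. Ighv1-73, a heavy chain variable gene, had the nearest protein-coding start site to 80 sites, of which 42 were single-copy, with pileups up to 168 fragments. Immunoglobulin segments not annotated as protein-coding were not used as start sites, so a site can lie nearer to such a segment. The stretch at chr12:116740416-116840223, assigned to Ighv1-73, held 3 annotated immunoglobulin genes and 0 protein-coding genes. Gm7112, on the same chromosome, was nearest to 43 sites (30 single-copy) by the same rule. Predicted genes of chromosome 12 came next, with Gm9257 at 39, Gm17391 at 32, Gm10479 at 31, Gm10330 at 20 and Gm17680 at 18 sites. Gm6901 and Gm17353 on chromosome 13 and C230091D08Rik on chromosome 7 had 16 each, none of them single-copy, followed by Mtrr (15), Gm3944 and Obox2 (13 each), Gm17404 (12) and Vmn2r-ps106 (10). By symbol, predicted Gm genes were nearest to 529 sites (175 single-copy) and vomeronasal receptor genes to 62 (10 single-copy), and 10 of 1106 olfactory receptor genes had any. Counted by gene, 172 of 1852 Gm genes (9.29%) and 24 of 327 vomeronasal receptor genes (7.34%) had a site, against 8.43% of all protein-coding genes. Gm genes had 0.746 and vomeronasal receptor genes 0.365 single-copy sites per Mb of the stretch nearest to them, both below the 0.784 of all protein-coding genes.

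Distances to genes were shorter than in the sites of either other line alone. The median distance to a protein-coding start site was 38161 bp (35739–40820), compared with 48964 bp (47415–50598) for Pax6-HIGH-only and 57135 bp (53048–60634) for Pax6-ON-only sites. Distal Pax6-OFF intervals shared with another line had a median of 38932 bp (36214–41563) and those of all 3 lines 34736.5 bp (31240–39022), and these intervals overlap that of Pax6-OFF-only sites. Of the sites, 19.3% lay within 10 kb of a start site and 27.4% lay over 100 kb away. Intergenic sites made up 66.6% (64.9–68.3), introns 29.7% and exons 3.62%, while 55.3% (54.5–56.1) of Pax6-HIGH-only and 63.4% (61.6–65.2) of Pax6-ON-only sites were intergenic. The share was 66.7% (64.7–68.6) in distal Pax6-OFF sites shared with 1 other line and 72.0% (69.2–74.6) in those of all 3 lines. In single-copy Pax6-OFF-only sites the intergenic share was 59.5%. The farthest site, with 32 fragments, lay 2441401 bp from Cdh20. The next 4 were near 4930555F03Rik, Igfbp7, Odz2 and Pcdh7, and their pileups ranged from 27 to 35 fragments.

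Sequence motifs were not used to choose the sites and differed in frequency between the single-copy sites of the lines. Of 34 motifs searched on both strands of these windows, AP-1 (TGANTCA, which reads the same on both strands) had the largest share among the 3 whose sequences are shown. RUNX was searched as TGTGGTT and TEAD as ACATTCC. None of these patterns contains another, but matches of different motifs can overlap. The windows below are the highest-fold sites with a match within 25 bp of the summit, in order AP-1, RUNX and TEAD with 2 of each, on the + strand of mm9, and capitals mark the match on either strand.
Srsf6 site, chr2:162633678-162633778: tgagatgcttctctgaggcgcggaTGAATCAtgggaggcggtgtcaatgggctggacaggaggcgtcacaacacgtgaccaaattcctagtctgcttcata
Mrpl33 site, chr5:31879125-31879225: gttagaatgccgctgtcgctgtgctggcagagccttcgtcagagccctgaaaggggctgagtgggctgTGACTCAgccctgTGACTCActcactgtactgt
Barhl2 site, chr5:106620310-106620410: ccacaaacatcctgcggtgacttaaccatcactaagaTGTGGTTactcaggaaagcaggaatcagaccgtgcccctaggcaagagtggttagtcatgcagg
Pde4d site, chr13:110033494-110033594: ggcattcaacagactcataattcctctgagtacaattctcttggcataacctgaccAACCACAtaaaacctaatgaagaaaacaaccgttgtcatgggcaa
Btg1 site, chr10:96160552-96160652: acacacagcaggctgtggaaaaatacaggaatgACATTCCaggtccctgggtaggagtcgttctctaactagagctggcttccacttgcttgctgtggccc
Fshr site, chr17:89433238-89433338: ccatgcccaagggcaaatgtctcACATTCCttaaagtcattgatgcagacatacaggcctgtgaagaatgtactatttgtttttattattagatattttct

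The AP-1 sites shown had fold enrichments of 6.33 (near Srsf6, pileup 74) and 6.13 (near Mrpl33, pileup 92), and the Mrpl33 window holds 2 matches. Those with RUNX lay 266779 bp from the homeobox gene Barhl2 (5.46-fold) and in an intron of the phosphodiesterase gene Pde4d (5.15-fold). For TEAD, the sites lay between genes 80614 bp from the antiproliferative gene Btg1 (6.50-fold) and in an intron of Fshr (6.16-fold).

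AP-1 matches were present in 658 of 1938 single-copy sites (34.0%, 31.9–36.1). Pax6-HIGH-only sites had 14.0% (13.4–14.6), Pax6-ON-only sites 59.99% (58.0–61.9) and all distal single-copy windows 23.8%. Pax6-OFF-only sites therefore stood between the other lines, and none of these intervals overlap. RUNX followed the same order, with 9.39% (8.17–10.8) in Pax6-OFF-only, 4.00% (3.68–4.34) in Pax6-HIGH-only and 11.8% (10.6–13.2) in Pax6-ON-only sites, where the intervals of Pax6-OFF-only and Pax6-ON-only sites overlap slightly. TEAD had 7.12% (6.06–8.35), 2.90% (2.63–3.20) and 9.54% (8.43–10.8). In all distal single-copy windows, the share was 5.71% for RUNX and 4.42% for TEAD. Distal Pax6-OFF sites shared with 1 other line had AP-1 in 37.9% (35.4–40.5), RUNX in 7.05% (5.81–8.52) and TEAD in 6.98% (5.75–8.45). Each of these intervals overlaps that of Pax6-OFF-only sites. In sites of all 3 lines the shares were 24.6% (21.0–28.7), 6.05% (4.25–8.56) and 3.13% (1.91–5.10). At the start sites of 21410 protein-coding genes, windows of the same length held AP-1 in 4.04%, RUNX in 3.26% and TEAD in 2.17%.

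FOX and MAF motifs had lower shares in Pax6-OFF-only sites than in sites of either other line alone. FOX (TGTTTAC) was present in 1.65% (1.17–2.32) of Pax6-OFF-only sites against 1071 of 13389 windows (7.55–8.47%) in Pax6-HIGH-only and 3.22% (2.59–4.00) in Pax6-ON-only sites. The other distal Pax6-OFF sites were also low, with FOX in 2.54% (1.83–3.52) of those shared with 1 other line and 2.51% (1.44–4.33) of those in all 3 lines, and these intervals overlap that of Pax6-OFF-only sites. The short MAF motif (TGCTGAC) was present in 4.59% (3.75–5.62) against 11.2% (10.7–11.8) and 6.23% (5.34–7.27), and the first and last of these intervals overlap. MAF was present in 6.18% (5.02–7.58) of Pax6-OFF sites shared with 1 other line and 5.85% (4.07–8.32) of sites in all 3 lines. CTCF (CCANNAGGG) had overlapping intervals in Pax6-OFF-only and Pax6-HIGH-only sites, with 4.95% (4.07–6.01) and 5.36% (4.99–5.76). Higher shares were also found. NF-kB (GGGNNNTTCC) had 5.01% (4.12–6.07) against 2.52% (2.26–2.80) in Pax6-HIGH-only and 2.64% (2.07–3.36) in Pax6-ON-only sites. For KLF/SP (GGGCGGGG) these were 3.30% (2.59–4.19), 2.18% (1.95–2.44) and 1.45% (1.04–2.00). Pax6-OFF sites shared with 1 other line had NF-kB in 5.16% (4.11–6.46) and KLF/SP in 9.30% (7.88–11.0). Sites of all 3 lines had NF-kB in 6.05% (4.25–8.56) and KLF/SP in 15.9% (12.9–19.4), so neither share was highest in Pax6-OFF-only sites.

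**Figure D3:**
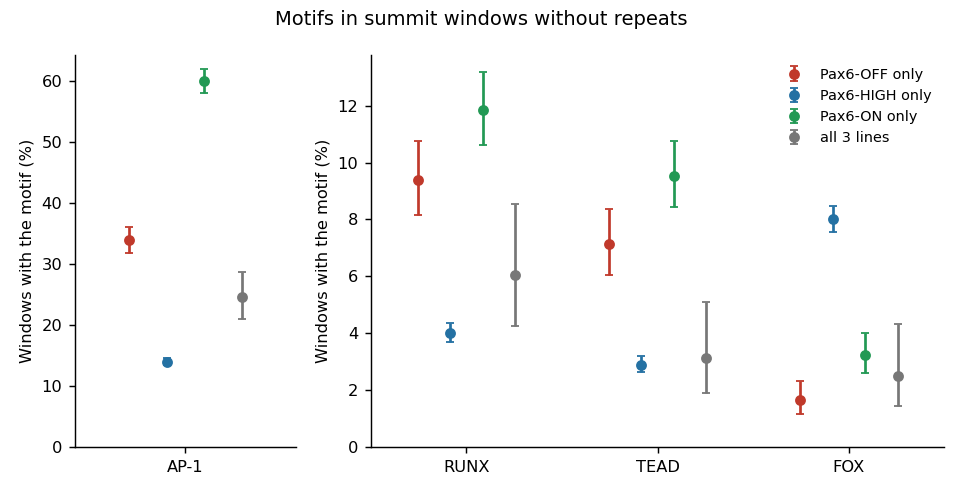
Share of windows around the summit with a motif (%, y axis) in single-copy distal sites of Pax6-OFF only, Pax6-HIGH only, Pax6-ON only and all 3 lines, with 95% Wilson intervals (the panels have different scales). AP-1 in Pax6-OFF-only sites is at 34.0%, between 14.0% and 59.99%, and FOX there is at 1.65%.

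AP-1 was more frequent in stronger sites. When the sites were ordered by fold enrichment and split in 4 groups of near-equal size, AP-1 was present in 17.9% (14.8–21.6) of the lowest group and in 32.0%, 43.6% and 42.3% (37.9–46.7) of the others. TEAD ranged from 4.95% (3.35–7.26) to 9.07% (6.83–12.0), with overlapping intervals. Median length also grew, from 264 to 422 bp, while the searched window stayed the same. Matches to AP-1 lay a median of 37 bp from the summit. TEAD and RUNX matches lay a median of 38.5 and 43.5 bp away. RUNX was present in 7.45% (5.68–9.71) of sites with AP-1 and 10.4% (8.84–12.2) of sites without it.

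**Figure D4:**
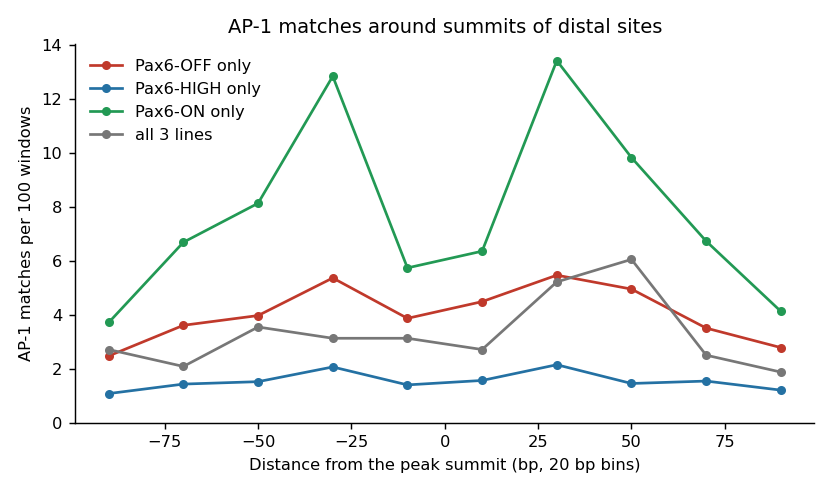
AP-1 matches per 100 windows (y axis) in 20 bp bins by distance from the summit (bp, x axis) for single-copy distal sites of Pax6-OFF only, Pax6-HIGH only, Pax6-ON only and all 3 lines. Matches in Pax6-OFF-only sites lay a median of 37 bp from the summit, and the curve lies below that of Pax6-ON-only sites.

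Among named genes, 1804 of 21410 protein-coding genes (8.43%) had at least 1 site nearest to their start site, and 1426 (6.66%) had at least 1 single-copy site. Genes with 1 site numbered 1355 and genes with 5 or more numbered 51. Ordered by single-copy sites, a ranking added after the data were seen, the leading genes outside the heavy chain and predicted genes were Rapgef5, Igfbp7 and St3gal1 with 7 each. Next were Arhgap22, Dock1, Myc, Btg1, Pde4d, Efna5 and Katnal1 with 6 each. Rapgef5 encodes an exchange factor for Ras-family GTPases, and its sites had pileups from 30 to 84 fragments. The sites of Arhgap22, a regulator of Rac, had 37, 64, 82, 113, 130 and 139 fragments. Their highest fold enrichment was 4.15, over local backgrounds of 15.9 to 34.8 fragments, and the highest values of Btg1 (6.50) and Rapgef5 (5.82) lay above it. Dock1 encodes a Rac activator, and its site with the highest pileup, 97 fragments, lay 3051 bp from the start site.

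Growth and signalling genes were described by lists, and each count is set beside 8.43% of all genes. These lists hold genes with wide surroundings, which gather more sites, so the density over the stretch nearest to the genes of a list is given too. For all protein-coding genes it was 1.17 sites per Mb, or 0.784 single-copy sites per Mb. Genes of the TGF-β and BMP pathways had the highest share, with 18 of 38 genes (47.4%), 2.37 sites per Mb and 1.80 single-copy sites per Mb. Ltbp1, which stores latent TGF-β in the matrix, had 4 sites, with 34, 48, 50 and 81 fragments. The ligand gene Bmp7 had intronic sites with 52 and 61 fragments, and the activin gene Inhba, the inhibitor Smad7 and the receptor Acvr2a also had 2 sites each. With single-copy sites alone the count was 13 of 38. It was 8 of 38 when each line was held to its 9821 peaks of lowest q-value. With sites on chromosomes 12 and 13 left out it was 11, and the genes on these chromosomes stayed among the 38. Over all protein-coding genes these 3 settings gave 1426, 1355 and 1485 genes with a site, against 1804.

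In the receptor tyrosine kinase and MAPK list, 7 of 34 genes had sites (1.65 per Mb). Myc, a growth-promoting transcription factor, had 6 of the 12 sites, from 117232 to 671143 bp from its start site on chromosome 15. Their pileups were 34, 42, 43, 43, 58 and 65 fragments, and the strongest lay at chr15:62332463-62333037. Dusp4, Dusp6 and Dusp5, whose products switch off MAP kinases, had 1 site each. Of 37 Wnt pathway genes 6 had sites, all 12 of them single-copy (1.66 per Mb). The ligand Wnt5a had 4 (27, 36, 39 and 59 fragments), the transcription factor Tcf7l2 had 3 and the receptor Fzd5 had 2, followed by Wnt7b and Ctnnb1. Cytoskeletal and focal adhesion genes gave 6 of 39 (2.01 per Mb), with 4 sites at the kinase gene Src (43, 49, 53 and 80 fragments), 2 at Actb, and 1 each at Palld, Cdc42ep3 and Tln2. With 9821 peaks per line this count was 2 of 39, while the count over all protein-coding genes went from 1804 to 1355. Hippo pathway genes gave 4 of 24 (0.999 per Mb), namely Frmd6 with 2 sites and Tead3, Axl and Fat1 with 1 each.

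Genes of kidney development and of mature tubule function were described apart. Of 31 nephron transcription factors, 9 had sites (29.03%, 1.24 per Mb), and all 9 had a single-copy site. With sites on chromosomes 12 and 13 left out the count was 5, and the genes on these chromosomes stayed among the 31. The count over all protein-coding genes went from 1804 to 1485 in that setting. Maf had 3 sites, with 59, 62 and 83 fragments. Irx1, which acts in the intermediate part of the nephron, had 30, 31 and 72, and Osr1, an early factor of the kidney lineage, had 35, 51 and 59. Irx2 had 2 sites. Pax2 had 1, with 28 fragments, 9121 bp from its start site. In contrast, 4 of 36 tubule transporter and marker genes had sites (11.1%, 0.789 per Mb), each with 1. These were the water channel gene Aqp1 (55 fragments), the bicarbonate cotransporter gene Slc4a4 (50), the endocytic receptor gene Lrp2 (41) and the cadherin gene Cdh6 (31). Pax8, Lhx1, Cdh16, Emx2, Wt1 and Cubn had no site. The intervals of both shares, 16.1–46.6% and 4.41–25.3%, overlap, and the densities lie on either side of 1.17 per Mb.

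Adhesion and matrix genes were mixed. Epithelial junction and keratin genes gave 5 of 36 (2.86 per Mb), with 2 sites each at the keratin gene Krt18 and the claudin gene Cldn10 and 1 each at Ocln, Cldn1 and Epcam. The Cldn10 sites were not single-copy. Mesenchymal and matrix genes gave 12 of 45 (1.29 per Mb), led by Timp3, Thbs2 and Lamb1 with 2 sites each and the integrin genes Itga1 and Itga2 with 1 each. AP-1 and related bZIP genes gave 2 of 16 (Batf and Fos), and nuclear receptor genes gave 5 of 37 (0.666 per Mb), with 3 sites at the retinoic acid receptor gene Rara, 2 at Nr5a2 and 1 each at Nr4a1, Vdr and Ppard. Inflammatory and interferon genes gave 2 of 40 (Socs3 and Cxcl1) and Hox genes 1 of 39 (Hoxb1). Islet β-cell genes gave 3 of 28, where Ptprn2 on chromosome 12 had 5 of the 7 sites, with Chga and Nkx6-1 next, and lens genes gave 1 of 25 (Bfsp2).

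Families defined by symbol ranged widely as well. Klf genes had sites at 7 of 16 (43.8%), Ptpr phosphatase genes at 9 of 23 (39.1%), Sox genes at 6 of 18 (33.3%) and Cdh genes at 9 of 29. Per Mb these were 2.45, 1.66, 1.43 and 0.562 sites, so the cadherin count lay below the density of all genes. Arhgap genes had 14 sites, all single-copy, at 7 of 29 genes (2.36 per Mb). Solute carriers (28 of 343, 1.06 per Mb) and zinc finger Zfp genes (29 of 362, 1.86 per Mb) had shares near 8.43%.

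**Figure D5:**
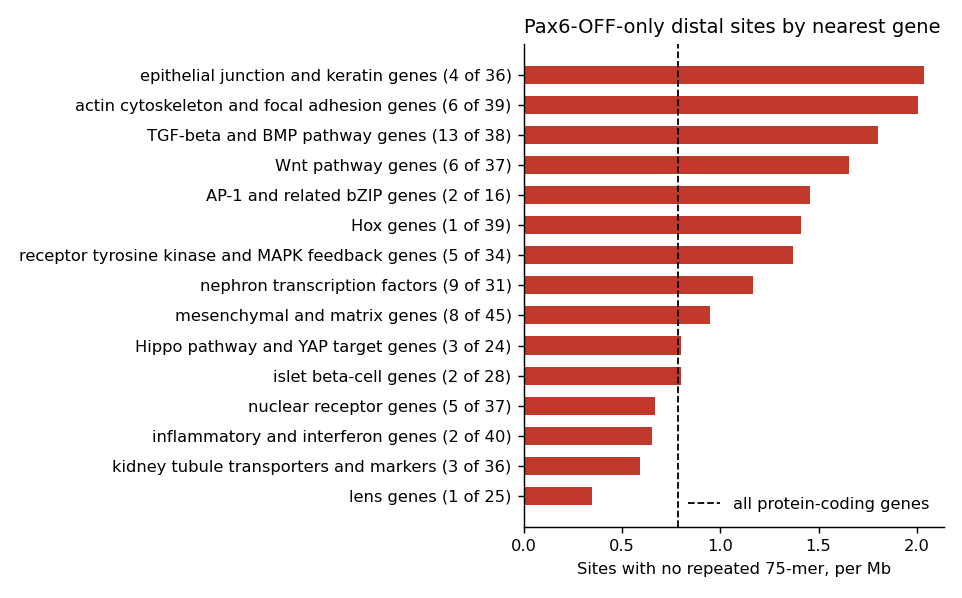
Single-copy Pax6-OFF-only sites per Mb of the stretch nearest to the genes of each list (x axis), with the number of genes that have such a site in brackets and the value for all protein-coding genes (0.784) as a dashed line. Several bars rest on few sites, such as Hox genes with 1 and AP-1 genes with 2.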

How the data were processed

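ATAC-seq of 6 samples, 2 per cell line, was analysed from 1 table of MACS2 peaks per line. Per the labels and the study's methods, the authors trimmed reads with Trim Galore 0.4.1, aligned them to mm9 with Bowtie2 2.2.6, used SAMtools 1.6 and ran MACS2 2.1.1 with q-values limited to 0.05, on both replicates together and without a control. The signal in the deposited tables is a pileup of fragments over each summit, not scaled for depth, so it was compared within Pax6-OFF cells except for ratios relative to all common start-site intervals. The deposited fold enrichment is a ratio, pileup over local background (range 6250 bp), each plus 1. The deposited −log10 q-values were used as given, and the p-values were not used. MACS2 took whole fragments with no Tn5 shift and kept all duplicates in its input, which can widen peaks and raise pileups. The calls used 102223606 fragments in Pax6-OFF, 100254099 in Pax6-HIGH and 130955836 in Pax6-ON cells.

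Peaks of chromosomes 1 to 19 were merged with pandas 2.3.3 (Python 3.11.15). Sequence came from the NCBIM37 reference (the assembly of mm9) with pysam 0.24.0, genes from GENCODE M1, and figures from matplotlib 3.10.9. Shares have Wilson and medians binomial intervals at 95%. Motifs were matched as letters in windows of 100 bp on each side of the summit, and 75-mers counted over the whole reference with numba 0.67.0. Each site was assigned to the nearest protein-coding start site. Scripts were tested on simulated peaks and sequences. Sites named were the 10 of highest fold enrichment, the 5 longest, the 5 densest stretches of 100 kb and the 5 farthest from a start site, and the text describes most of them. Genes named were the 15 with most sites and up to 5 per list. Of 15 lists, those with unmatched symbols are given over the matched genes. Members, lists and motifs were chosen with earlier results of these data known. Alternatives are given in the closing section. Some sites, genes and a motif are not reported here. Chromosome 18 was left out of printed sequences, and sex chromosomes were not part of the choice.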

Additional observations from a re-analysis of the deposited data

How the results depend on the processing

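No paired analysis was possible because both replicates of each line were pooled in 1 call, and for the same reason no replicate could be left out. Of 430 values recomputed under 14 alternatives set at the start and 4 added after seeing the data, 352 stayed within the counting interval of the value reported, or within 1.5 times for counts, and 78 moved. A q-value under 0.01, another line's peak within 500 bp counted as shared, and the distance taken from the summit moved none of the main values. A q-value under 0.001 raised the median fold enrichment from 3.04 to 3.12. With 9821 peaks per line there were 1807 sites, with a median fold enrichment of 3.88, 25.9% on chromosomes 12 and 13 and AP-1 in 26.7%, against 24.9% of all 2898 windows. A 50% reciprocal overlap gave 27.5% on these chromosomes. Start-site limits of 2500 and 5000 bp gave median distances of 40942 and 46278 bp. Gene models of all types gave 61.2% intergenic sites, and windows of 50 and 200 bp on each side gave AP-1 in 15.04% and 33.1%, as fewer or more bases were searched. Among single-copy sites the share of AP-1 was 20.4% and 44.7% at these lengths, between 7.83% and 39.4%, and between 21.0% and 68.5%, in Pax6-HIGH-only and Pax6-ON-only sites.

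The alternatives added later moved more. Sites with no repeated 75-mer had a median fold enrichment of 3.25, a median distance of 33830.5 bp, 22.8% on chromosomes 12 and 13, 59.5% intergenic and AP-1 in 34.0%. Sites with no repeated 36-mer numbered 1664, with 3.29-fold, 31514.5 bp, 18.5%, 56.2% and 37.3%. Without chromosomes 12 and 13 the values were 3.12-fold, 30598 bp, 59.7% intergenic, 73.8% without a repeated 75-mer and AP-1 in 27.1%. The 1764 sites with the local background at its genome-wide value had 3.21-fold, 20.1% on chromosomes 12 and 13, 60.9% intergenic, 76.8% without a repeated 75-mer and AP-1 in 31.3%. Apart from the window length and the fewer sites, the cause of these shifts was not tested. Counts of list genes moved too, and the lists kept their genes on chromosomes 12 and 13 when sites there were left out. The count over all protein-coding genes also fell from 1804. It was 1355 with 9821 peaks per line, 1485 without chromosomes 12 and 13 and 1410 with the background at its genome-wide value. By nearest gene body it was 1768, and within 100 kb 1523. TGF-β and BMP genes went from 18 to 8 with 9821 peaks per line and to 11 without chromosomes 12 and 13. Cytoskeletal genes went from 6 to 2 with equal peaks. Nephron transcription factors went from 9 to 5, β-cell genes from 3 to 1 and AP-1 and related bZIP genes from 2 to 0 without chromosomes 12 and 13. Nuclear receptor genes went from 5 to 2 where the background was at its genome-wide value. Wnt genes went from 6 to 3 by nearest gene body and Hippo genes from 4 to 2 within 100 kb. Some counts rose. With 9821 peaks per line Wnt genes went from 6 to 9, nuclear receptor genes from 5 to 7 and tubule genes from 4 to 5. Depth limits what can be said of absence, since a site under 25 fragments in Pax6-HIGH or under 30 in Pax6-ON cells was not called.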

Other observations

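Short stretches of the mitochondrial genome turned up among the strongest sites. Of the 10 sites with the highest fold enrichment, those at chr6:9839948-9840152 (pileup 10999, 16.5-fold) and chr6:79768140-79768340 (pileup 340, 16.9-fold) had 87 and 35 31-mers in the summit window that also occur in the mitochondrial genome. No other site of the 2898 had any, and the shares were 0 of 14679 Pax6-HIGH-only, 1 of 2865 Pax6-ON-only and 5 of 1058 distal sites called in all 3 lines. This search was added after the pileups were seen.

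Chromosome X, which the choice of sites left out, held 128 distal Pax6-OFF-only intervals among 844 merged intervals.

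GC content of the summit windows had a median of 50.7% in Pax6-OFF-only sites, 49.3% in Pax6-HIGH-only and 45.8% in Pax6-ON-only sites. The letters GTCACGC, a short PAX motif, were present in 1.44% (1.00–2.08) of single-copy Pax6-OFF-only windows, 0.754% (0.621–0.916) of Pax6-HIGH-only and 0.784% (0.503–1.22) of Pax6-ON-only windows. The first and last of these intervals overlap. Pax6-OFF windows shared with 1 other line had the motif in 1.82% (1.23–2.67) and windows of all 3 lines in 1.04% (0.447–2.42), and both intervals overlap that of Pax6-OFF-only windows.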
